A study of Homo sapiens with 8 samples.

Results

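VEGFC and CCBE1 encode 2 secreted proteins that act together in the growth of lymphatic vessels. They are described here as genes with listed regions in an RNA immunoprecipitation with sequencing (RIP-seq) of the translation initiation factor eIF4G2. Both were picked by name from genes already seen to have a bound region in only 1 of the 2 deposited lists, so their presence and absence there chose them and is given as a description, with no test. They are 2 of 861 genes with a bound region inside or overlapping them in either list. They had 20 regions in all, 2 over VEGFC and 18 over CCBE1, out of 1986 regions in the eIF4G2 overexpression list, and 0 of the 1224 regions in the control list.

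The cells were IHCF, fibroblasts of the human heart that had been immortalized, and no second line was used. In the eIF4G2 overexpression arm a lentivirus delivered extra eIF4G2, and in the control arm a lentivirus delivered a scramble vector. Lysates of both arms were precipitated with an antibody against eIF4G2, so the control list holds RNA bound to the eIF4G2 that these cells make themselves. Total and precipitated RNA were sequenced from 2 biological replicates per arm, 8 libraries in 4 groups, but the deposited tables give 1 list of regions per arm and no value for a library. A region is a stretch of the genome where the authors' caller placed bound RNA above its own threshold, on GRCh38, and the positions and widths below are those of the authors' deposited tables. The tables hold no read count, score or p-value. Depth is therefore unknown, no replicate error can be attached to any value below, and a gene that is missing from a list may still have been bound. Only the names of the tables tell which arm each belongs to, and these names also carry MOV10, an RNA-binding protein that the sample labels do not mention.

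VEGFC is a growth factor released as a precursor, and lymphatic endothelial cells sense it through the receptor encoded by FLT4. The precursor gains its full activity after cleavage by the protease ADAMTS3, and CCBE1, a matrix-associated protein with collagen-like and calcium-binding EGF domains, promotes that cleavage. Loss of either partner in development leaves tissues without proper lymphatic vessels, and fibroblasts and other stromal cells are among the sources of both. In the heart, lymphatic vessels drain fluid and immune cells from the muscle wall.

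The chromosomes set the frame for reading the lists. CCBE1 lies on chromosome 18, which carried 1339 regions (67.4%) of the overexpression list and 0 of the control list. VEGFC lies on chromosome 4, with 491 overexpression and 1185 control regions. Of the 270 protein-coding genes that RefSeq places on chromosome 18, 60.0% were in the overexpression list. Of the 770 on chromosome 4, 27.3% were in that list and 43.1% were in the control list. Only 3.25% of chromosome 4 genes (25 genes, VEGFC among them) were in the overexpression list alone, against 19.1% in the control list alone. That CCBE1 was in only 1 of the lists therefore cannot be told apart from the absence of the whole chromosome from the control list. The widths in the lists also differed: the narrowest region was 205 bp on chromosome 18 and 400 bp on chromosome 4 of the overexpression list, and 200 bp on chromosome 4 of the control list. Numbers of regions are for that reason set against genes of the same chromosome and are not compared between VEGFC and CCBE1.

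VEGFC (ENSG00000150630) spans 109.385 kb of chromosome 4, from 176683538 to 176792922, and is read from the minus strand. Its first region, at 176683401 to 176684635, was 1235 bp wide and lay across the 3′ end of the gene, with 1098 bp inside it and 137 bp beyond it. The second, at 176690601 to 176691085, was 485 bp wide and began 7.063 kb from the 3′ end. Both regions thus lay at the far end of the transcript, at 99.6% and 93.3% of the way from its start, and 5.965 kb apart. The 5′ part of VEGFC had no region: the one nearest to the start was 101.837 kb away from it. Together the regions summed to 1720 bp, 1583 bp of it inside the gene, which is 1.45% of the gene's length.

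The tables list 2 Ensembl transcripts of VEGFC under these regions. The 109.385 kb transcript (ENST00000618562) holds both. The shorter, of 40.293 kb (ENST00000507638), begins and ends inside the gene and holds only the 485 bp region, which starts 1301 bp from the 3′ end of that transcript. The lists give no exon positions, so whether a region lies in an exon, an intron or an untranslated part is not known from them. A 3′ position was common on this chromosome: of 476 pairs of an overexpression region and a coding gene on chromosome 4, 45.4% had their centre in the last 10% of the longest listed transcript, and the median position was 85.8%. A region across the very end was less frequent, in 52 of the 210 listed coding genes (24.8%), and 22 of these genes had a wider one than VEGFC.

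The regions of VEGFC cannot be given to VEGFC alone. Both also lie inside an unnamed gene, ENSG00000248388, which is read from the plus strand and spans 36.525 kb from 176669621 to 176706145, across the 3′ part of VEGFC. RefSeq has the long noncoding RNA HAFML over these positions, from 176654184 to 176706143, matched here by position and not by identifier. The tables give no strand for a region, so RNA of VEGFC and RNA of this antisense gene cannot be told apart. The unnamed gene had no other region in either list, and its 2 regions are those of VEGFC. On chromosome 4, 20.9% of the overexpression regions in genes lay over more than 1 gene, and 50 of the 210 listed coding genes shared all their regions with another gene.

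**Figure D1:**
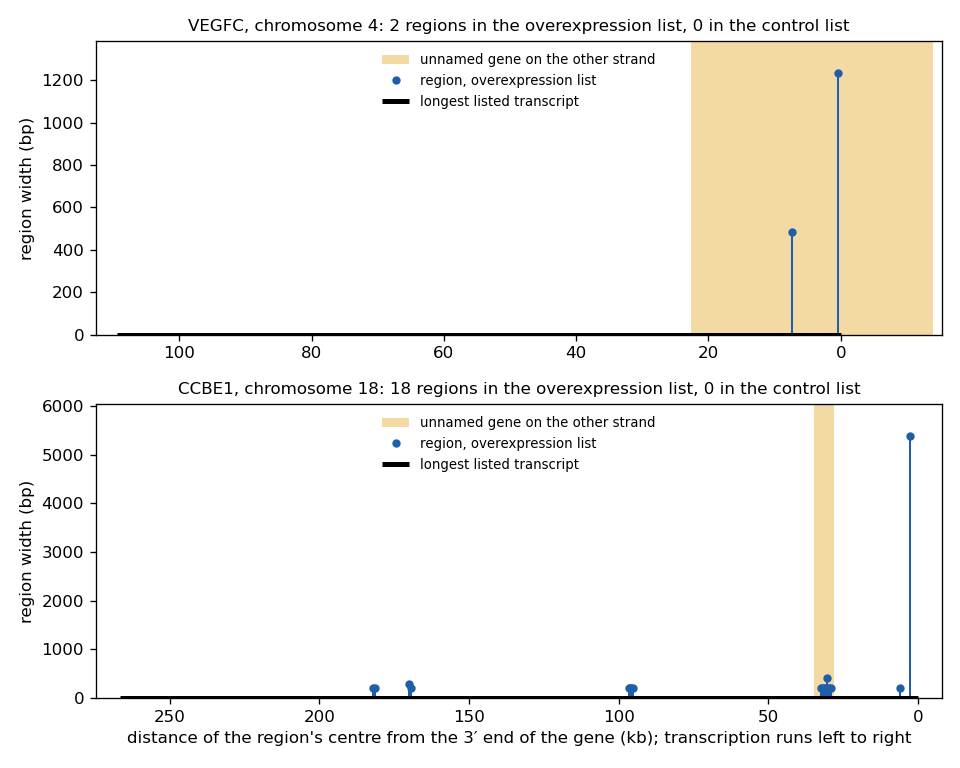
Each point is a bound region of the overexpression list, placed by the distance of its centre from the 3′ end of VEGFC (top) or CCBE1 (bottom) in kb, with its width in bp on the vertical axis; the black line is the longest listed transcript and the shaded band the unnamed gene on the opposite strand. The widest region of each gene (1235 and 5385 bp) lies at the 3′ end, and the control list has 0 regions over either gene.

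Few regions lay near those of VEGFC in either list. Distances to other regions are counted here from the nearer VEGFC region, not from the end of the gene. The nearest control region, 2365 bp wide and over SPCS3, a subunit of the signal peptidase that trims secreted proteins, lay 350.29 kb away. On the other side the nearest was 670.37 kb away, over the DNA repair glycosylase gene NEIL3. SPCS3 had 3 control regions (5250 bp) and NEIL3 3 (1300 bp), and the overexpression list assigned no region to a transcript of either. By the RefSeq span of NEIL3, which ends at 177371268, an overexpression region at 177370401 to 177371600 shares 868 bp with its end. The next coding genes outward, ASB5 and AGA, had none in either list. The nearest overexpression regions outside VEGFC lay 679.315 kb away on 1 side, the one at the RefSeq end of NEIL3, and 3354.8 kb away on the other, over an unnamed gene.

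Few regions of chromosome 4 lay as far from the control list. Of the 491 overexpression regions there, 319 (65.0%) overlapped a control region by 1 bp or more. The other 172 lay at a median of 4.705 kb from the nearest one, and 462 of the 491 lay within 100 kb. Only 7 regions (1.43%) were as far from a control region as those of VEGFC, and 2 of the 7 are the VEGFC regions themselves. Among the others were regions over the pseudogene RAC1P2 (726.055 kb), C1QTNF7-AS1 together with CPEB2 (441.16 kb) and TIGD2 (386.725 kb). The nearest RefSeq coding genes, SPCS3 and NEIL3, lie 351.292 and 516.951 kb from VEGFC, and both had control regions. The distance of the VEGFC regions therefore cannot be told apart from the spacing of genes there. VEGFC itself was chosen for having no control region, so its place in this order is a description.

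**Figure D2:**
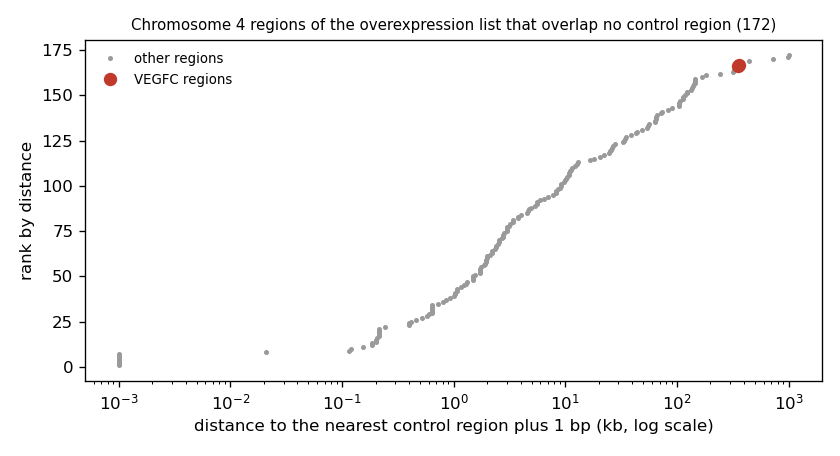
The 172 overexpression regions of chromosome 4 that overlap no control region are ranked by their distance to the nearest control region (horizontal log axis, in kb, with 1 bp added so that touching regions can be drawn). The VEGFC regions, at 350.29 and 357.49 kb, lie near the far end of the range.

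By size, VEGFC lay in the middle range of chromosome 4. Its summed width of 1720 bp ranked 87 of the 210 coding genes with an overexpression region, whose median was 1430 bp. Among the 104 such genes of 0.5 to 2 times its length it ranked 42, and by summed width per kb of gene 53 (15.7 bp per kb, against a median of 16.2). Of all 245 coding genes in this length range, 42.4% had an overexpression region, against 27.3% over all lengths, and 5.71% (14 genes) were in that list alone. Like VEGFC, 9 more coding genes of the chromosome had exactly 2 overexpression and 0 control regions. Among those nearest to VEGFC in summed width were the diacylglycerol kinase gene DGKQ (1260 bp), ZGRF1 (1230 bp), the sarcoglycan gene SGCB (1200 bp) and the lysosomal iduronidase gene IDUA (2625 bp). None of these 4 had a region across its 3′ end, while VEGFC had 71.8% of its summed width in one. Of all 9, ZCCHC4 did, with 430 of 875 bp (49.1%).

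CCBE1 (ENSG00000183287) is also read from the minus strand and spans 266.783 kb of chromosome 18 in RefSeq, from 59430939 to 59697721. One region stood apart in width. It lay at 59430936 to 59436320 across the 3′ end, was 5385 bp wide, and reached only 3 bp beyond the gene. No other gene lies under it in the table. The other 17 regions were between 205 and 410 bp wide, with a median of 215 bp, and summed to 3835 bp. The 3′ region thus held 58.4% of the summed width of 9220 bp. Inside the gene the regions covered 9217 bp, 3.45% of its length.

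The narrow regions were near the smallest width listed on this chromosome. At 205 bp there were 8 and at 215 bp, the next width found, 7, so 15 of 18 (83.3%) were at most 215 bp, against 651 of all 1339 regions of chromosome 18 (48.6%). ATP8B1, a phospholipid flippase gene, also had 15 regions of at most 215 bp, among 38 in all, and no coding gene of the chromosome had more. A region of this width gives a position, but little about extent.

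The 18 regions fell into 5 groups, with gaps of at most 645 bp within a group and of at least 10.9 kb between groups. Counted from the 3′ end, the first group held the 5385 bp region and a region of 215 bp at 59436966 to 59437180, 645 bp from it. The second group, at 59459841 to 59463625, began 28.902 kb from the 3′ end and held 8 regions of 205 to 410 bp within 3785 bp, of which they covered 1875 bp (49.5%). The third, at 59526056 to 59527695, held 4 regions of 205 to 215 bp within 1640 bp and began 95.117 kb from the 3′ end.

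The remaining groups were small. The fourth, at 59600266 to 59601290, held 2 regions of 205 and 280 bp and began 169.327 kb from the 3′ end. The fifth, at 59612191 to 59612975, held regions of 215 and 205 bp and was the nearest to the start of the gene, 84.687 kb from it. The gaps between the groups were 22.66, 62.43, 72.57 and 10.9 kb, so the groups were not evenly spaced. As with VEGFC, the 5′ part of the gene had no region, here with no region centred in the first 31.8% of the longest listed transcript.

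**Figure D3:**
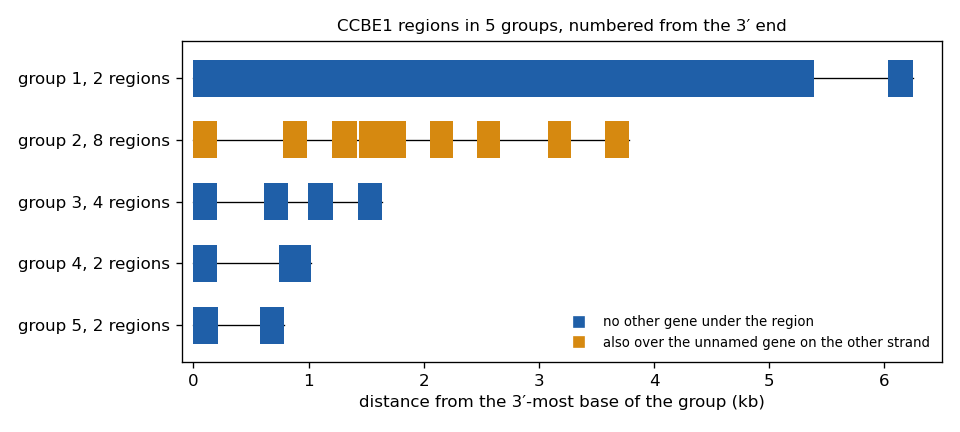
The 18 CCBE1 regions are drawn to scale in 5 rows, 1 per group, from the 3′-most base of the group in kb. Orange marks the 8 regions of the second group that also lie over an unnamed gene on the opposite strand, and the first row shows the 5385 bp region at the 3′ end.

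Of the 18 regions, 8 also lie over another gene, and these are the 8 of the second group. The other gene, ENSG00000267000, is unnamed, is read from the plus strand and spans 6.611 kb from 59459072 to 59465682, within CCBE1. RefSeq has no record at that place, and the gene had no further region. These 8 regions summed to 1875 bp, 20.3% of the CCBE1 total, and cannot be given to 1 of the 2 genes. The 10 regions over CCBE1 alone summed to 7345 bp and include the wide 3′ region. On chromosome 18 as a whole, 21.7% of the overexpression regions in genes lay over more than 1 gene, and 20 of the 162 listed coding genes shared all their regions with another gene.

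The tables list 6 Ensembl transcripts of CCBE1, from 20.068 to 266.724 kb long. The 3 longest hold all 18 regions. The 5385 bp region contains the 3′ ends of 5 of the 6 transcripts. The exception is a transcript of 218.117 kb (ENST00000589419) that holds 16 of the 18, and its 3′ end lies 11795 bp from the nearest of them. A transcript of 49.301 kb (ENST00000398179) covers only the 3′ part of the gene and holds 10 regions, those of the first and second groups. The 8 regions outside the first and second groups lie in the long transcripts only, those of 218.117 kb and more.

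Along the longest transcript, the place of the CCBE1 regions relative to the chromosome turned on the second group. The median position of all 18 was 87.9% of the way from the start, against 77.5% for the 1204 pairs of a region and a coding gene on chromosome 18. Over the 10 regions that lie over CCBE1 alone it was 63.8%, against 76.8% for the 893 pairs whose region lies over 1 gene only. The direction against the chromosome was thus opposite without the second group. With CCBE1 regions up to 1000 bp apart merged, the 5 groups had a median of 64.0%. The regions of the chromosome were not merged, so this value has no like value beside it. Only 2 of 18 (11.1%) had their centre in the last 10%, against 33.0% of the pairs, since the 8 regions of the second group lay just before that limit, at 87.8% to 89.1%. Another 4 of 18 (22.2%) lay before the midpoint, against 28.8%. Regions of 1 gene are not independent of each other, so these shares have no test.

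**Figure D4:**
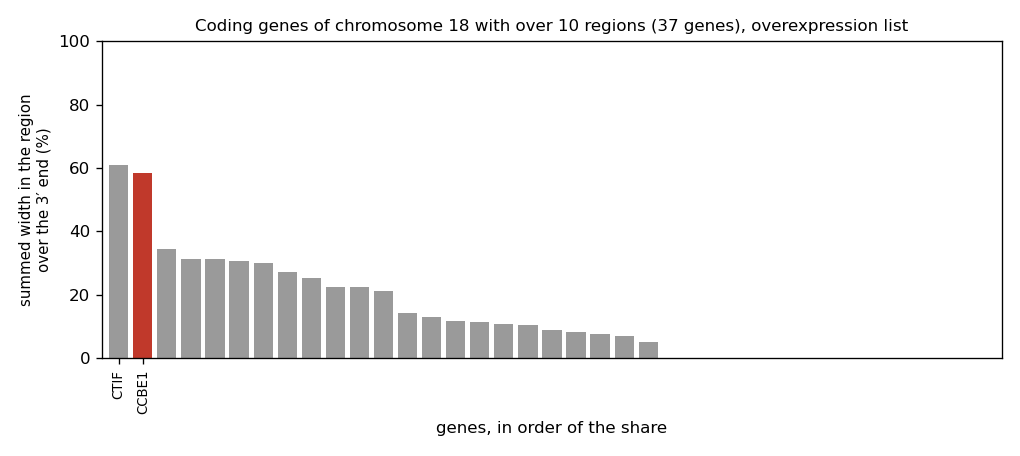
For each of the 37 coding genes of chromosome 18 with over 10 regions in the overexpression list, the bar gives the percentage of summed region width that lies in the region across the 3′ end of the longest listed transcript. CCBE1 (red, 58.4%) and CTIF (60.8%) are above 50%, and 14 genes are at 0.

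Few genes combined many regions with 1 wide 3′ region. A region across the 3′ end was present in 92 of the 162 listed coding genes of chromosome 18 (56.8%), with a median width of 1470 bp. The 5385 bp region of CCBE1 was the second widest of these, after that of the ribosomal protein gene RPL17 (6520 bp), which had that region only and shared it with another gene. Of the 37 coding genes with over 10 regions, only CCBE1 and CTIF, a translation factor of the nuclear cap-binding complex, had more than 50% of their summed width there. CTIF had 11 regions, with 4515 of 7425 bp in the 3′ region (60.8%). The median over the 37 genes was 8.92%. Without the limit of over 10 regions, CCBE1 stood out less by this share. It ranked 24 of the 162 listed coding genes, whose median was 9.88%. Among the 38 in the length range used below it ranked 4. The measure depends on which transcript is the longest in the tables.

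**Figure D5:**
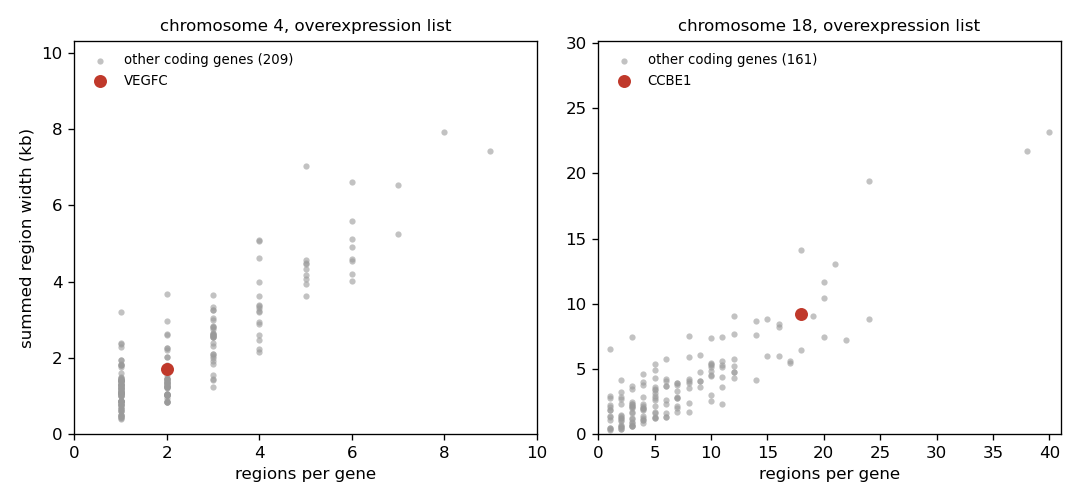
Each point is a coding gene with at least 1 region in the overexpression list, on chromosome 4 (left, with VEGFC in red) or chromosome 18 (right, with CCBE1 in red), by its number of regions and summed region width in kb. VEGFC (2 regions, 1.72 kb) lies amid the genes of its chromosome and CCBE1 (18 regions, 9.22 kb) in the upper part of its own; the axes differ between the panels.

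CCBE1 was among the most covered genes of chromosome 18, as far as its length is left aside. By summed width it ranked 8 of the 162 coding genes (median 2982.5 bp, highest 23185 bp for the kinase gene ROCK1), and by number of regions 11 (median 5). Per kb of gene, its 34.6 bp ranked 98 of 162, below the median of 44.1. Among the 38 listed coding genes of 0.5 to 2 times its length it ranked 3 by summed width and 6 by width per kb, where the median was 16.7 bp. Of the 69 coding genes in this length range, 55.1% had a region, a share near the 60.0% over all lengths, so nothing is read from its presence.

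Genes near to CCBE1 in number of regions reached it in other ways. NDUFV2, a subunit of respiratory complex I, had 18 regions, summing to 6455 bp. AFG3L2, a mitochondrial protease, had 19 (9070 bp), and the methyl-CpG reader MBD2 and the centriolar protein gene CEP76 had 17 each (5640 and 5490 bp). These genes are 31.643 to 73.064 kb long, so the same number of regions lay in a far shorter span than in CCBE1. Their widest regions were 645 to 2460 bp, against 5385 bp. The share in a region across the 3′ end was 27.1% for AFG3L2 and 0 for the other 3. All 17 regions of CEP76 and 11 of the 19 of AFG3L2 also lie over another gene, against 0 for MBD2. Those shared regions cannot be given to CEP76 or AFG3L2 alone.

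The neighbours of CCBE1 were in the overexpression list too. LMAN1, a cargo receptor for glycoproteins that leave the endoplasmic reticulum, lies 71.673 kb away and had 9 regions (3590 bp), the widest of 1510 bp across its 3′ end. PMAIP1, a BH3-only protein that promotes apoptosis, lies 202.333 kb away on the other side and had 2 (2660 bp), with 92.3% of the width across the 3′ end. Of the next coding genes outward, CPLX4 and MC4R had none. Stretches without a region flank CCBE1, of 66.42 kb on the side of LMAN1 and 281.94 kb on the side of PMAIP1, the latter counted from the CCBE1 region nearest to the start.

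Most other genes of lymphatic growth lie on chromosomes with few or no listed regions. Of 56 genes set down for this pathway, VEGFC and CCBE1 included, 44 lie on chromosomes other than 4, 10 and 18, where the overexpression list had 35 regions in all and the control list 10. None of the 44 had a region; 36 of them, FLT4 included, lie on chromosomes with no listed gene, and 8, VEGFA and VEGFD included, on chromosomes with some. Of the 12 on these 3 chromosomes, 4 had a region: VEGFC and CCBE1 in the overexpression list only, PDGFC in the control list only and FGF2 in both. That is 3 of 6 on chromosome 4, where 46.4% of all coding genes were in either list. On chromosome 18 it is 1 of 2, where 60.0% were, so nothing is read from the counts. Each count includes a member that was chosen for having a region. Without the members, PDGFC and FGF2 had a region among 5 genes on chromosome 4. NFATC1, the only other pathway gene on chromosome 18, had none. On chromosome 10, the overexpression list held 9.13% of the coding genes and the control list 4.09%, and the 4 pathway genes there had none: the VEGF co-receptor NRP1, the integrin subunit ITGB1, the protease ADAMTS14 and the urokinase gene PLAU.

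The pathway genes of chromosomes 4 and 18 without a region in either list were ADAMTS3, KDR, FAT4 and NFATC1. ADAMTS3, the protease that cleaves the VEGFC precursor, is 288.253 kb long, lies on chromosome 4 like VEGFC, and had no region in either list. The endothelial receptor gene KDR and the atypical cadherin gene FAT4, on the same chromosome, had none either, nor did the transcription factor gene NFATC1 on chromosome 18. A missing region does not show absence of binding, and expression of these genes was not given in the tables.

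PDGFC, a growth factor of the wider VEGF and PDGF family, had 1 control region at 156761446 to 156763165 on chromosome 4. It was 1720 bp wide, lay over no other gene, and had its centre at 99.1% of the longest listed transcript without crossing its end. VEGFC and PDGFC, both growth factor genes of chromosome 4 with regions in the last 10% of the transcript, were thus in opposite lists, with no test of that difference. VEGFC was chosen for being in only 1 list, so nothing is read from the contrast. Of all coding genes of chromosome 4, 19.1% were in the control list alone and 3.25% in the overexpression list alone. Unlike that of PDGFC, the VEGFC regions also lie over an antisense gene and cannot be given to VEGFC alone. A centre in the last 10% was common on chromosome 4, in 45.4% of overexpression and 42.0% of control pairs of a region and a coding gene. FGF2 had 3 regions in each list, 3350 bp in the control and 3260 bp in the overexpression list, and all but 1 of the 6 also lay over the antisense gene NUDT6.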

How the data were processed

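RIP-seq of IHCF cells gave 8 libraries (4 groups of 2), and the authors deposited a list of regions for each arm. HISAT2 2.1.0, Trimmomatic 0.36 and bcl2fastq 2.19.0 are named for GRCh38 (hg38) in the submitters' processing notes. How regions were called, at which threshold, whether total RNA served as background and how replicates were joined is not given in the sources used here. Per the file headers, the deposited values are positions, widths and distances in bp, with no normalization.

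Rows were reduced to 1 entry per region and gene, keeping regions inside, overlapping or containing a listed Ensembl transcript. Position runs from the start to the end of the longest listed transcript, by its strand. Widths were summed in full. Narrow regions are those of the 2 smallest widths on chromosome 18. Genes were matched to RefSeq GRCh38.p14 by symbol or synonym. Genes named are the members, genes under their regions, their listed neighbours, pathway genes on chromosomes 4, 10 and 18, and the 5 genes most alike in regions and width, of which 1 per member is not reported here. Others (TIGD2, RAC1P2, CPEB2, C1QTNF7-AS1, CTIF, RPL17, ROCK1, ATP8B1, ZCCHC4, VEGFA, VEGFD, FLT4) were chosen after their values were seen. Members, lists and alternatives were chosen with earlier results of these data known. The interval calculations were tested on simulated regions. Python 3.11.15, pandas 2.3.3 and matplotlib 3.10.9 were used.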

Additional observations from a re-analysis of the deposited data

How the results depend on the processing

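The lists hold no value per library, so leaving out replicates could not be run. No paired analysis was possible because no column carries a replicate number. Of 40 alternative values, 30 stayed close to the value reported (within 1.5 times for counts, widths and ranks). Among them were the absence of both genes from the control list and of overlap with control regions. Some of the 30 could not have changed, so their number is no measure of robustness. Chromosome 18 had 0 control regions, and both genes were picked as already seen in only 1 list. A stricter overlap cannot raise a count of 0. The VEGFC regions, of 1235 and 485 bp and 5.965 kb apart, lie beyond the limits of 400 and 1000 bp. Counted among the 30, the median position of CCBE1 regions fell from 87.9% to 63.8% over 1 gene only and to 64.0% merged. Both alternatives were added after the data were seen. The median of the chromosome was 77.5%, and 76.8% over 1 gene only, so the first alternative changed the direction. No merged median of the chromosome was made to set beside the second. Limiting the count to regions over 1 gene left 0 VEGFC regions (0 bp) and 10 CCBE1 regions. Merging regions up to 1000 bp apart left 5 for CCBE1, and a minimum of 400 bp left 2 (5795 bp). By summed width among all named genes of the chromosome, VEGFC ranked 94 and CCBE1 8. By width per kb of gene they ranked 167 and 128, and among coding genes of 0.5 to 2 times their length, an alternative added after the data were seen, 42 and 3. Ranks over fewer genes are smaller by construction. Depth is unknown for every region, so a missing region cannot be read as missing RNA.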
